A study of Mus musculus with 8 samples.

Results

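The SLC25 family comprises the carriers that move metabolites across the inner membrane of mitochondria, and 45 genes whose symbol is Slc25a followed by a number were taken from a table of 22065 named genes. Membership went by symbol alone, but the family was chosen with earlier results of these data known. RNA had been sequenced from pools of 100 hematopoietic stem cells (HSCs, sorted from mouse bone marrow as CD150+ CD48- EPCR+ Lin- cells), with 4 libraries from MitolΔ/Δ mice and 4 from controls. The paper's definition of long-term HSCs also requires CD117, the protein of Kit. MITOL, encoded by Marchf5, is a ubiquitin ligase of the mitochondrial outer membrane. MitolΔ/Δ mice were Mitol Flox/Flox and carried MX1-cre, a recombinase under an interferon-inducible promoter that acts in hematopoietic and other interferon-responsive cells. Controls were Mitol Flox/Flox littermates without the recombinase. All mice were C57BL/6, were 8 to 10 weeks old and had received Poly:IC, an interferon inducer, and HSCs were taken 1 week later. The labels do not state that each library came from a different mouse, so the p-values below measure the spread between these libraries.

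SLC25 proteins share a fold of repeated membrane-spanning segments and alternate between a state open to the cytosol and a state open to the matrix. The ADP/ATP carriers export ATP in exchange for ADP, the phosphate carrier supplies phosphate for ATP synthesis, and other members move carboxylates, amino acids, cofactors, iron or glutathione. HSCs are mostly quiescent and are known to rely less on oxidative phosphorylation than their dividing progeny.

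Libraries held 7214935 to 12398138 counts on named genes, of which the family took 0.234% to 0.258%. Marchf5 itself stood at 24.3 to 32.9 CPM (counts scaled to library size) in MitolΔ/Δ libraries and at 28.2 to 35.6 CPM in controls. The ranges overlapped, and a count over the whole gene does not show whether the floxed exons were lost. According to the paper, deletion of the gene was checked by PCR in mice taken as MitolΔ/Δ. All 10 HSC marker genes were detected in every library, with a summed level of 2699 to 3057 CPM in MitolΔ/Δ HSCs and 3973 to 4777 CPM in controls. By edgeR, 3 of the 10 fell, Kit and Hlf among them, and 0 rose. Slamf1 and Ly6a had positive log2 fold changes that did not pass, 0.56 (adjusted p = 0.0501) and 0.76 (adjusted p = 0.0605). All 10 genes of the S and G2/M phases rose in MitolΔ/Δ HSCs, with a summed level of 875 to 1848 CPM against 545 to 826 CPM. Cd48, whose protein was gated out in the sort, also rose, by 1.72 on the log2 scale (SE 0.48, edgeR adjusted p = 0.0450). The 8 red-cell genes summed to 517 CPM in MitolΔ/Δ replicate 3, to 103 to 178 CPM in the other MitolΔ/Δ libraries and to 41.9 to 84.8 CPM in controls. The neutrophil list summed to at most 108 CPM, the B-lineage list to at most 21.8 CPM and the T-cell list to at most 5.78 CPM in any library. Only 4 of the 6 B-lineage genes and 2 of the 6 T-cell genes were among the named genes, so these sums cover parts of their lists. The part of these differences in the results below was not tested. Values given without a library leave out all that is particular to it, so they do not test that part. In bulk RNA, fewer cells of a kind and less RNA per cell cannot be told apart.

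Upstream sequence is shown for the ADP/ATP carrier genes Slc25a5 and Slc25a4, which differed in level, and for Slc25a34, the member with the largest fall. Each run is the 250 bases before the gene's start in GRCm39, read 5′ to 3′ on the gene's strand, and capitals mark matches on either strand to the TATA box word TATAAA, the E-box word CACGTG, the GC box core GGGCGG, the CCAAT box and the NRF1 palindrome. The windows lie at chrX:36058973-36059222 on the plus strand for Slc25a5, at chr8:46664326-46664575 on the minus strand for Slc25a4 and at chr4:141351152-141351401 on the minus strand for Slc25a34.
Slc25a5: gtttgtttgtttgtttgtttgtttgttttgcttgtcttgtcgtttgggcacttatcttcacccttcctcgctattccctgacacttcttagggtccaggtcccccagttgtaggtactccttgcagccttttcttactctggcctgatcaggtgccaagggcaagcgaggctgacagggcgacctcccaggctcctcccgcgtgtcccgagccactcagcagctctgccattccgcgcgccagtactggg
Slc25a4: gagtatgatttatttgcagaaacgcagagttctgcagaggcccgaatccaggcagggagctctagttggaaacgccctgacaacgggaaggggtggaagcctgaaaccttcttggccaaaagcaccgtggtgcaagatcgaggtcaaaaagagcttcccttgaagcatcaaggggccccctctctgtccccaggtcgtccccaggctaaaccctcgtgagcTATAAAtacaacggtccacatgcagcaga
Slc25a34: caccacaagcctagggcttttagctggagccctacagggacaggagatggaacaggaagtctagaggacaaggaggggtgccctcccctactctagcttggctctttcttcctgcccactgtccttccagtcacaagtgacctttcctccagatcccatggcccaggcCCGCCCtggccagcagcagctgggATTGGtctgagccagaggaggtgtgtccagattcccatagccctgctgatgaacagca
The Slc25a4 window held a TATAAA match near its 3′ end, and the Slc25a5 window held none of these motifs. The Slc25a34 window held 1 GGGCGG and 1 CCAAT match, both read on the opposite strand. TATAAA was present in 3 of the 45 members' windows (6.67%) and in 11.9% of all 21769 windows of protein-coding genes. CACGTG was present in 7 members' windows (15.6%) against 6.26% of all, GGGCGG in 22 (48.9%) against 36.3%, CCAAT in 17 (37.8%) against 36.5%, and the NRF1 palindrome in 0 against 0.666%. These matches are descriptions of the letters and of nothing bound there.

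Slc25a5, which encodes the ADP/ATP carrier ANT2 and is known for its high level in dividing cells, was the most abundant member and rose most in MitolΔ/Δ HSCs. Its level in RPKM, which scales the count to library size and to exon length, was 142, 142, 104 and 85.1 in MitolΔ/Δ replicates 1 to 4 and 80.8, 61.8, 70.7 and 47.6 in control replicates 1 to 4. Each MitolΔ/Δ library lay above each control library, with replicate 4 nearest to the controls. The means were 118 ± 28.5 and 65.2 ± 14.1 RPKM (SD, n = 4 each), a log2 fold change of 0.86 (SE 0.18, edgeR adjusted p = 0.0195). The summed level of the S and G2/M genes followed the same order among MitolΔ/Δ libraries, at 1848, 1841, 1385 and 875 CPM, whereas it was 599, 545, 826 and 576 CPM in controls. The part of the cell cycle in the rise of Slc25a5 was not tested. The gene lies on chromosome X at 36059223 to 36062462, and 34.0% of the 75-base words of its transcript also occur elsewhere in GRCm39, on 4 chromosomes. Reads from such words may have been dropped or placed elsewhere. A separate row for its pseudogene held 20 counts over all 8 libraries. The adjusted p was 0.0527 without MitolΔ/Δ replicate 1, 0.0553 without MitolΔ/Δ replicate 2 and 0.0646 without control replicate 2.

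Slc25a4, encoding ANT1, the ADP/ATP carrier of heart and skeletal muscle, stood lower in both groups. It measured 20.0, 23.3, 19.4 and 18.7 RPKM in MitolΔ/Δ HSCs and 18.1, 16.6, 17.1 and 15.1 RPKM in controls. The groups did not overlap, but the log2 fold change of 0.29 (SE 0.11) missed the threshold (edgeR adjusted p = 0.119). None of its 1855 transcript words occurs elsewhere in the genome. The 2 ADP/ATP carriers together reached 139 ± 30.0 RPKM in MitolΔ/Δ HSCs and 81.9 ± 15.3 RPKM in controls, or 26.1% and 17.9% of the summed RPKM of the family. Slc25a5 supplied 84.9 ± 2.42% of that sum in MitolΔ/Δ HSCs and 79.2 ± 2.50% in controls. By library its share was 87.6%, 85.9%, 84.2% and 82.0% in MitolΔ/Δ HSCs and 81.7%, 78.8%, 80.5% and 75.9% in controls, so that the groups came within a fraction of a percentage point of each other. Whether the changes of Slc25a5 and Slc25a4 differ was not tested. The germline carrier Slc25a31 was not analysed here.

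**Figure D1:**
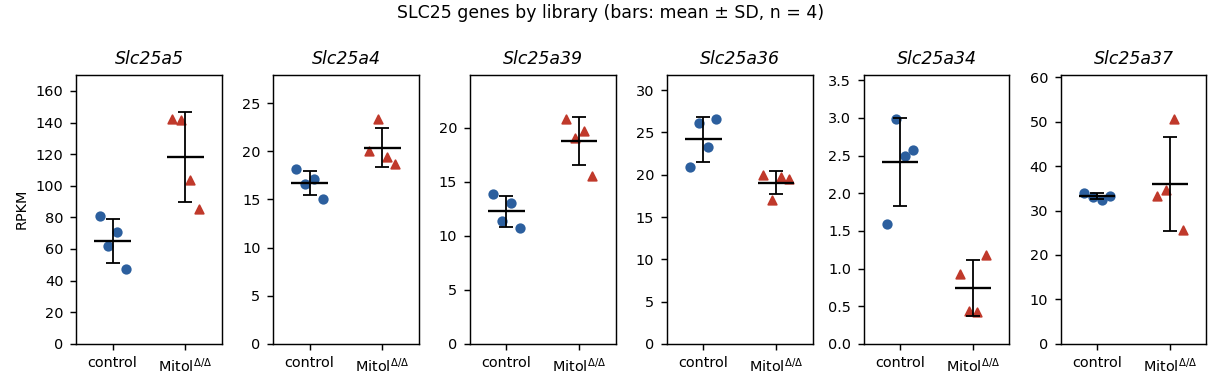
RPKM of 6 SLC25 genes in each of 4 control (circles) and 4 MitolΔ/Δ libraries (triangles), with bars for the mean ± SD and axes that start at 0. Slc25a5, Slc25a4 and Slc25a39 lay higher in all MitolΔ/Δ libraries, Slc25a36 and Slc25a34 lay lower, and Slc25a37 overlapped, with MitolΔ/Δ replicate 3 at 50.5 RPKM.

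Over the family, 42 of the 45 members had enough counts to be tested among 16444 genes. Slc25a5 and Slc25a39 rose and Slc25a34 and Slc25a36 fell at an edgeR adjusted p under 0.05. The 4 members called in either direction stand beside 8.43% of all genes. The 2 members that rose were 4.76% of those tested, beside 4.68% of all genes, and the 2 that fell were likewise 4.76%, beside 3.75% of all genes. These shares are near the background. All 4 MitolΔ/Δ libraries lay above all controls in 3 members (7.14%, beside 7.28% of all genes) and below them in 2 (4.76%, beside 7.87%). The log2 fold change was positive in 28 members and negative in 14, or 66.7% positive beside 47.7% of all genes, and its median was 0.07 beside -0.02 over all genes. The median SE of a member was 0.15 on the log2 scale. At an unadjusted p under 0.05 there were 4 members higher (9.52%, beside 13.6% of all genes) and 3 lower (7.14%, beside 12.8%).

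**Figure D2:**
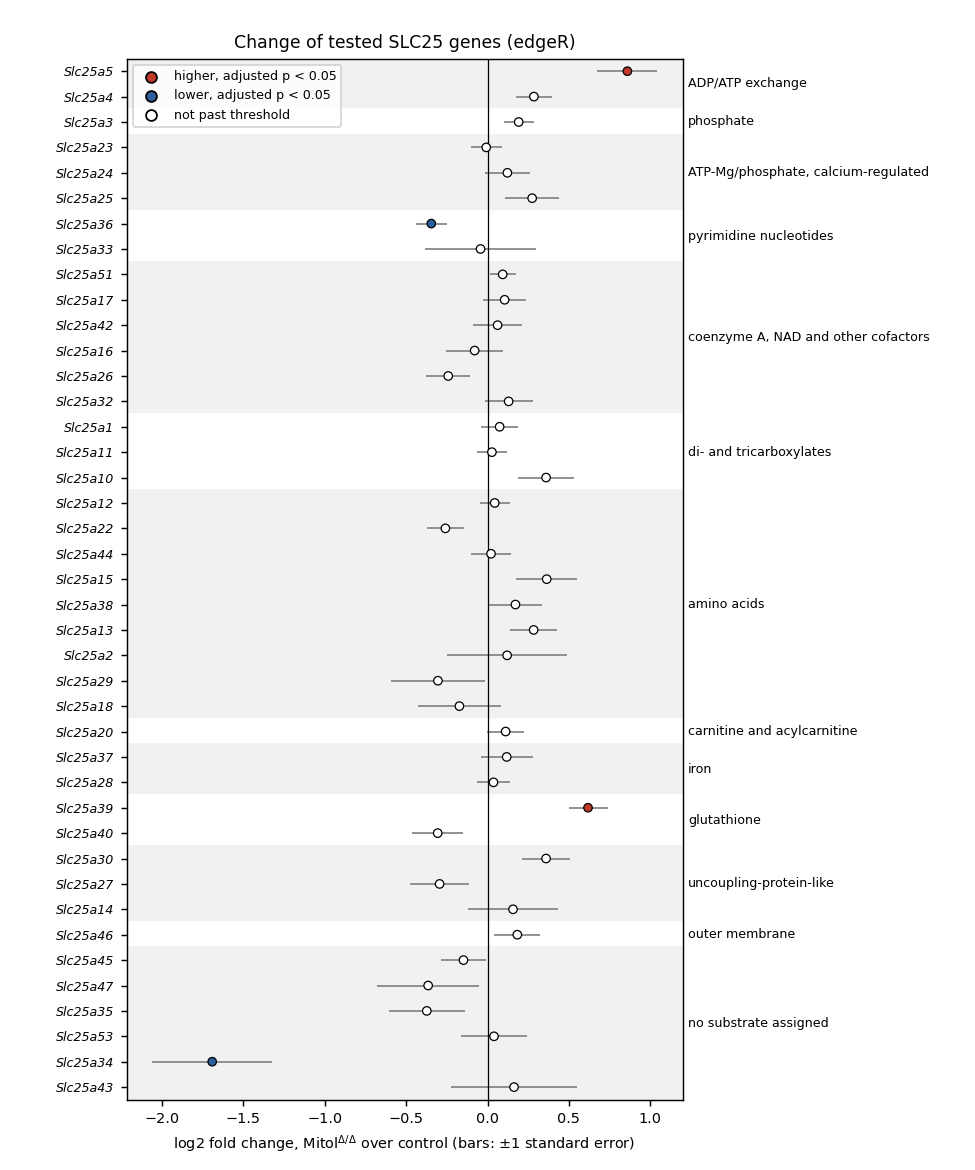
Log2 fold change of 41 of the 42 tested members, MitolΔ/Δ over control, grouped by substrate, with bars of 1 standard error. Filled points mark the 4 members past the edgeR threshold, Slc25a5 and Slc25a39 to the right of 0 and Slc25a36 and Slc25a34 to the left.

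Slc25a39, which carries glutathione into mitochondria, was the other member that rose. Its level was 20.8, 19.1, 19.7 and 15.5 RPKM in MitolΔ/Δ HSCs and 13.9, 11.4, 13.02 and 10.7 RPKM in controls. All MitolΔ/Δ libraries lay above the controls, with means of 18.8 ± 2.26 and 12.2 ± 1.45 RPKM (SD, n = 4 each) and a log2 fold change of 0.62 (SE 0.12, edgeR adjusted p = 0.0148). The adjusted p was 0.0522 without control replicate 2. The gene lies on chromosome 11 at 102292585 to 102299602 on the minus strand, and 31.1% of its exon bases overlap Rundc3a and Gm72261 on the other strand. The strand setting of the counting is not given in the sources used here, so reads of these genes may be shared. Its paralog Slc25a40, which also carries glutathione, was at 2.40, 2.48, 2.29 and 2.02 RPKM in MitolΔ/Δ HSCs and 2.16, 2.93, 2.62 and 3.64 RPKM in controls. These ranges overlapped (log2 fold change -0.31, SE 0.16, edgeR adjusted p = 0.240). Slc25a39 made up 89.0 ± 0.652% of the pair in MitolΔ/Δ HSCs and 81.0 ± 5.12% in controls, with no overlap between the groups.

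Slc25a34, a member with no assigned substrate, showed the largest fall. Its level was 0.929, 0.437, 0.428 and 1.18 RPKM in MitolΔ/Δ HSCs and 1.59, 2.98, 2.50 and 2.57 RPKM in controls. The means of 0.745 ± 0.375 and 2.41 ± 0.586 RPKM (SD, n = 4 each) gave a log2 fold change of -1.69 (SE 0.37, edgeR adjusted p = 0.0207). These levels rest on 11 to 31 counts in MitolΔ/Δ libraries and 31 to 73 counts in controls. The adjusted p was 0.0575 without MitolΔ/Δ replicate 2, 0.0568 without MitolΔ/Δ replicate 3, 0.0683 without control replicate 2 and 0.0520 without control replicate 4. The gene lies on chromosome 4 at 141346130 to 141351151 on the minus strand.

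Slc25a36, a carrier of pyrimidine nucleotides needed for mitochondrial DNA and RNA synthesis, fell slightly. It was at 19.9, 17.0, 19.8 and 19.5 RPKM in MitolΔ/Δ HSCs and at 20.9, 26.1, 23.3 and 26.5 RPKM in controls. The groups did not overlap, and the log2 fold change was -0.35 (SE 0.10, edgeR adjusted p = 0.0460). The adjusted p was 0.0850, 0.129 and 0.0991 without MitolΔ/Δ replicates 1, 2 and 3 and 0.135, 0.0799 and 0.122 without control replicates 2, 3 and 4. It was also 0.0507 with DESeq2's size factors in edgeR and 0.0672 with no expression filter. Of its transcript words 19.0% occur elsewhere in the genome, on 1 chromosome. Its paralog Slc25a33 was low, at 0.895, 2.53, 1.61 and 2.05 RPKM in MitolΔ/Δ HSCs and 2.18, 1.44, 1.27 and 2.38 RPKM in controls. Slc25a36 supplied 91.4% of the pair in MitolΔ/Δ HSCs and 93.0% in controls, and these shares overlapped.

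By level, the family was led by a few genes. The 5 highest members, Slc25a5, Slc25a3, Slc25a37, Slc25a45 and Slc25a1, held 51.8% of the summed family RPKM in MitolΔ/Δ HSCs and 46.6% in controls. The next 5 were Slc25a11, Slc25a36, Slc25a4, Slc25a51 and Slc25a39, which brought the share to 70.9% and 67.3%. The whole family summed to 526 ± 33.5 RPKM in MitolΔ/Δ HSCs and 455 ± 19.5 RPKM in controls, without overlap, while its share of counts overlapped. Slc25a5 alone supplied 118 and 65.2 RPKM of these sums, so most of the difference between them lay in this gene. RPKM used the merged length of all annotated exons. With the longest transcript as the length, Slc25a5 and Slc25a3 stayed at ranks 1 and 2, Slc25a11 moved to rank 3 and Slc25a37 to rank 7.

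**Figure D3:**
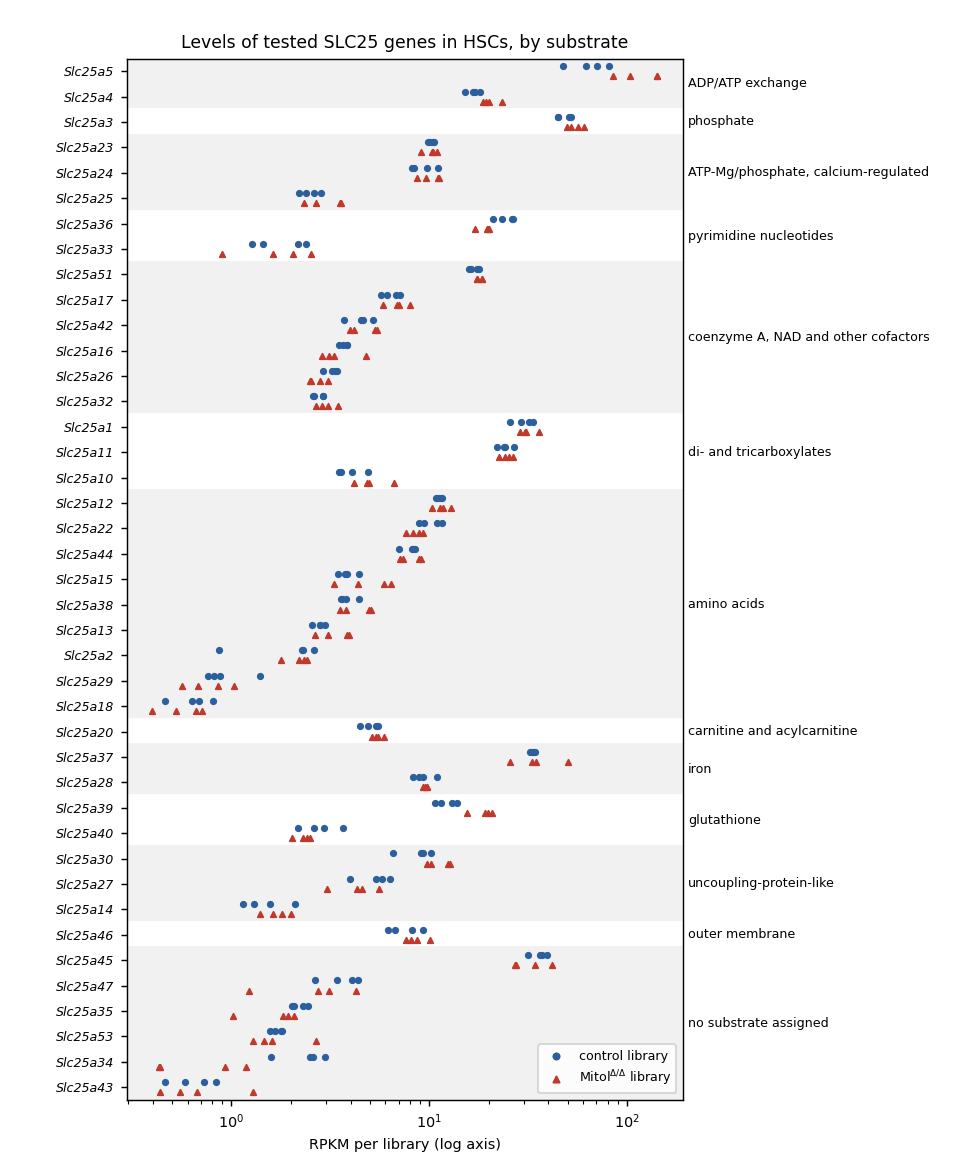
RPKM of 41 of the 42 tested members in each library on a log axis, grouped by substrate, with control libraries as circles and MitolΔ/Δ libraries as triangles. Slc25a5 and Slc25a3 stood highest, and Slc25a2, Slc25a18, Slc25a29, Slc25a33, Slc25a34 and Slc25a43 had libraries below 1 RPKM.

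Slc25a3, the phosphate carrier, ranked second among the members taken by symbol. It was at 60.7, 56.3, 52.3 and 49.5 RPKM in MitolΔ/Δ HSCs and 44.5, 50.8, 51.8 and 44.6 RPKM in controls. The ranges overlapped, and the log2 fold change of 0.19 (SE 0.09) did not pass (edgeR adjusted p = 0.204). Among the calcium-regulated ATP-Mg/phosphate carriers, none of 3 tested passed. Slc25a23 was at 10.4, 10.3, 9.04 and 10.9 RPKM in MitolΔ/Δ HSCs and 10.4, 9.82, 10.6 and 10.1 RPKM in controls. Slc25a24 was at 11.1, 8.64, 9.61 and 11.2 RPKM and at 8.13, 8.33, 9.70 and 11.1 RPKM in the same order. The groups overlapped in both genes. Slc25a25 was at 3.56, 2.67, 3.55 and 2.32 RPKM in MitolΔ/Δ HSCs and at 2.62, 2.38, 2.20 and 2.82 RPKM in controls. Slc25a41 was too low to test, at 0, 0.327, 0.293 and 0.588 RPKM and 0.634, 0.256, 0 and 0.363 RPKM. Slc25a23 and Slc25a24 took 43.1% and 42.8% of the set in MitolΔ/Δ HSCs and 45.9% and 41.5% in controls, so neither isoform predominated by merged exon length. With the longest transcript, Slc25a23 took 50.6% and 53.8% and Slc25a24 took 30.1% and 29.2%.

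Slc25a37, or mitoferrin-1, which supplies iron for heme synthesis and is known from red-cell precursors, had rank 3 by mean level over all 8 libraries and rank 4 in controls alone. Its values were 33.2, 34.7, 50.5 and 25.5 RPKM in MitolΔ/Δ HSCs and 34.0, 33.0, 32.4 and 33.3 RPKM in controls. Control libraries were tightly grouped, whereas MitolΔ/Δ libraries lay on both sides of them. The log2 fold change was 0.12 (SE 0.16, edgeR adjusted p = 0.683) and -0.07 without MitolΔ/Δ replicate 3, the library with the highest red-cell gene sum. Whether red-cell RNA had a part in these values was not tested. Slc25a28, or mitoferrin-2, was at 9.50, 9.68, 9.78 and 9.33 RPKM and at 10.97, 9.27, 8.86 and 8.29 RPKM in the same order. Mitoferrin-1 supplied 78.2 ± 4.32% of the pair in MitolΔ/Δ HSCs and 78.1 ± 1.84% in controls. In Slc25a37, 30.0% of exon bases overlap genes on the other strand.

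No carrier of di- and tricarboxylates passed among 3 tested. Slc25a1, the citrate carrier that feeds cytosolic acetyl-CoA, was at 30.8, 36.0, 28.9 and 30.6 RPKM in MitolΔ/Δ HSCs and 33.6, 25.6, 29.0 and 31.9 RPKM in controls, a log2 fold change of 0.07 (SE 0.11, edgeR adjusted p = 0.717). Slc25a11, the oxoglutarate carrier of the malate-aspartate shuttle, had means of 24.6 and 24.1 RPKM, and Slc25a10, the dicarboxylate carrier, had means of 5.14 and 4.01 RPKM. Slc25a21, the oxodicarboxylate carrier, stayed at or below 0.344 RPKM and was not tested.

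Of 9 amino-acid carriers, 6 had a positive log2 fold change and none passed. Slc25a12, the aspartate/glutamate carrier of the malate-aspartate shuttle, was at 11.7, 12.9, 11.4 and 10.3 RPKM in MitolΔ/Δ HSCs and 11.5, 11.1, 10.8 and 11.6 RPKM in controls. It outweighed its paralog Slc25a13, at 3.93, 3.85, 3.08 and 2.65 RPKM and 2.81, 2.54, 2.95 and 2.81 RPKM, and took 77.5% and 80.2% of the pair. The glutamate carrier Slc25a22 was at 8.23, 9.28, 7.65 and 8.89 RPKM in MitolΔ/Δ HSCs and 11.5, 8.91, 9.38 and 10.9 RPKM in controls. Its paralog Slc25a18 was at 0.711, 0.396, 0.660 and 0.524 RPKM and at 0.634, 0.462, 0.689 and 0.803 RPKM. Slc25a22 thus took 93.6% and 94.0% of the glutamate pair. The ornithine carrier Slc25a15 was at 5.88, 6.38, 4.35 and 3.29 RPKM in MitolΔ/Δ HSCs and 3.76, 3.83, 4.42 and 3.46 RPKM in controls, with 2 MitolΔ/Δ libraries above and 1 below the controls. Its log2 fold change was 0.36 (SE 0.19, edgeR adjusted p = 0.237), and it was 0.54 with an adjusted p of 0.0325 without MitolΔ/Δ replicate 4. Slc25a15 took 68.5 ± 8.94% and 66.9 ± 8.78% of the ornithine pair. The other gene of that pair, Slc25a2, was at 2.20, 1.78, 2.32 and 2.41 RPKM in MitolΔ/Δ HSCs and 2.30, 2.27, 2.62 and 0.861 RPKM in controls. The glycine carrier Slc25a38, needed for heme synthesis, had means of 4.34 and 3.85 RPKM, the branched-chain amino acid carrier Slc25a44 of 8.11 and 7.99 RPKM, and the basic amino acid carrier Slc25a29 of 0.779 and 0.959 RPKM.

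**Figure D4:**
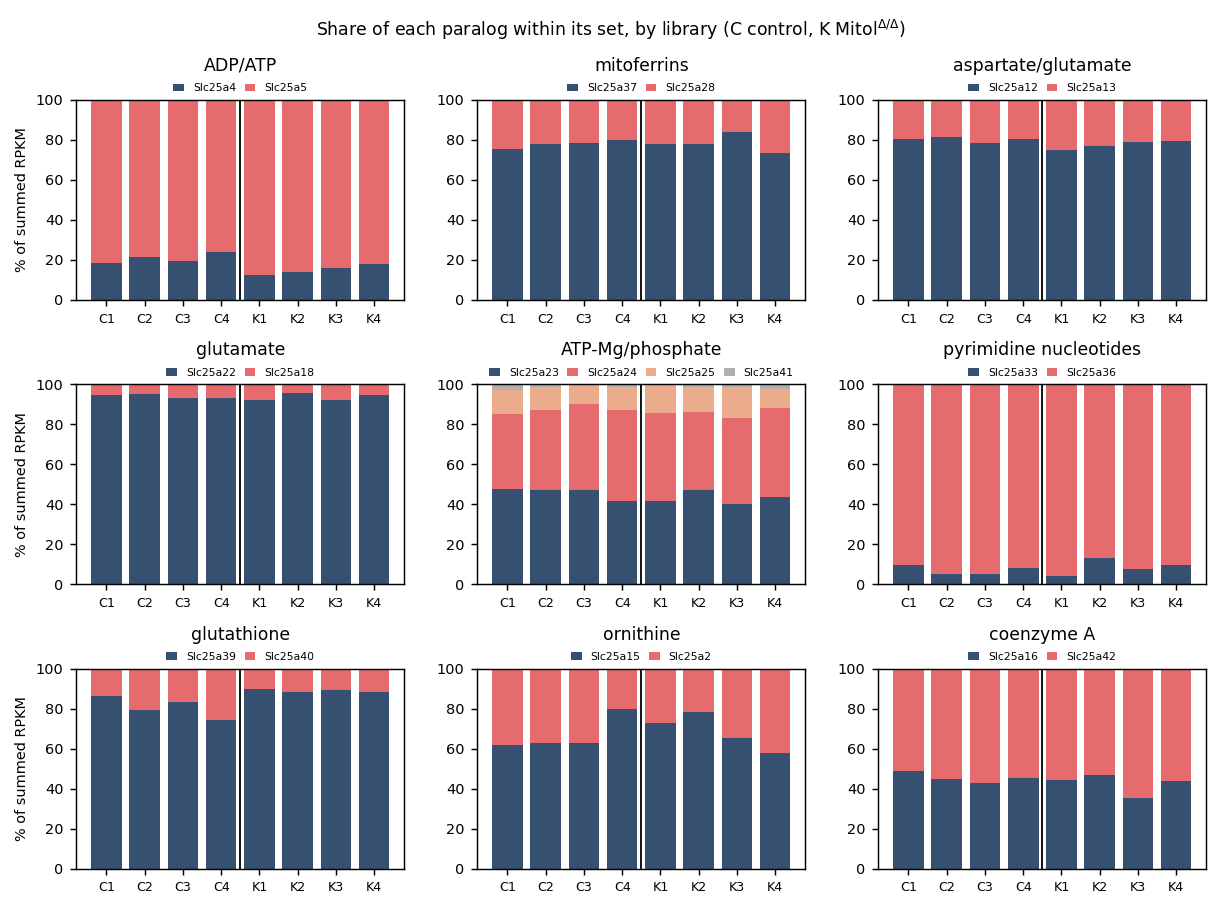
Share of each paralog in the summed RPKM of its set, in percent, for control libraries (C1 to C4) and MitolΔ/Δ libraries (K1 to K4). The shares of Slc25a5 and of Slc25a39 were higher in all MitolΔ/Δ libraries than in all controls, and the shares of the other sets overlapped.

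None of 7 cofactor carriers passed, and 5 of them had a positive log2 fold change. Slc25a51, the NAD carrier, led the group at 18.5, 17.4, 18.5 and 17.4 RPKM in MitolΔ/Δ HSCs and 16.2, 17.8, 17.4 and 15.9 RPKM in controls, a log2 fold change of 0.09 (SE 0.08, edgeR adjusted p = 0.498). The coenzyme A carriers were shared more evenly: Slc25a42 took 57.4% in MitolΔ/Δ HSCs and 54.6% in controls, and Slc25a16 the remainder. Slc25a42 was at 4.16, 5.42, 5.29 and 3.96 RPKM in MitolΔ/Δ HSCs and 3.69, 4.52, 5.16 and 4.63 RPKM in controls. Slc25a16 was at 3.29, 4.78, 2.88 and 3.13 RPKM and at 3.51, 3.68, 3.84 and 3.82 RPKM. Other members were the peroxisomal carrier Slc25a17 (6.93 and 6.45 RPKM), the S-adenosylmethionine carrier Slc25a26 (2.72 and 3.22 RPKM) and the folate and flavin carrier Slc25a32 (3.01 and 2.75 RPKM).

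Slc25a20, the carnitine/acylcarnitine carrier of fatty acid oxidation, was at 5.36, 5.53, 5.13 and 5.91 RPKM in MitolΔ/Δ HSCs and 4.88, 5.40, 4.48 and 5.53 RPKM in controls (log2 fold change 0.11, SE 0.11, edgeR adjusted p = 0.576). Of the members taken by symbol that are related to uncoupling proteins, Slc25a30 was highest, at 9.75, 10.2, 12.7 and 12.4 RPKM and 10.2, 9.07, 9.34 and 6.53 RPKM. Its log2 fold change of 0.36 (SE 0.15) did not pass (edgeR adjusted p = 0.148). Ucp2, a family member under another symbol, stood higher, with means of 59.0 and 53.2 RPKM. Slc25a27 had means of 4.38 and 5.36 RPKM, and Slc25a14 of 1.70 and 1.52 RPKM. Slc25a46, an outer-membrane member involved in mitochondrial shape, was at 10.1, 8.66, 7.64 and 8.09 RPKM in MitolΔ/Δ HSCs and 6.21, 9.25, 6.70 and 8.17 RPKM in controls, which overlapped (edgeR adjusted p = 0.440).

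Among the 7 members with no assigned substrate in the list used, 6 were tested and only Slc25a34 passed. Slc25a45 had rank 4 in the family over all 8 libraries and rank 3 in controls alone, at 27.1, 27.4, 34.1 and 41.9 RPKM in MitolΔ/Δ HSCs and 37.3, 36.5, 39.2 and 31.5 RPKM in controls. Its MitolΔ/Δ libraries spread more widely than the controls, and the log2 fold change was -0.15 (SE 0.14, edgeR adjusted p = 0.528). Slc25a47 and Slc25a35 had log2 fold changes of -0.36 and -0.37, and Slc25a43 and Slc25a53 of 0.16 and 0.04, all with overlapping groups. Slc25a48 stayed at or below 0.0701 RPKM and was not tested.

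Genes that work with the family were also read from the same fit. Of 21 tested, 0 rose by edgeR, where 4.68% of all genes did, and 1 fell (4.76%, beside 3.75% of all genes). At an unadjusted p under 0.05, 8 were higher (38.1%, beside 13.6% of all genes) and 2 were lower (9.52%, beside 12.8%). DESeq2 called 1 higher. The gene that fell was Sfxn4, of the sideroflexin family of inner-membrane proteins, at 1.49, 0.986, 1.17 and 1.87 RPKM in MitolΔ/Δ HSCs and 2.08, 2.35, 2.26 and 2.80 RPKM in controls, with no overlap and a log2 fold change of -0.79 (SE 0.22, edgeR adjusted p = 0.0446). It lost the call with no expression filter and on leaving out any library other than MitolΔ/Δ replicate 4. Without that replicate, 6 of the related genes rose, and the genes that rose over the whole table went from 770 to 1482. Of the 7 genes for import of carrier proteins, which include the TIM22 translocase and its small chaperones, 6 had a positive log2 fold change and none passed. Family members under other symbols did not pass either, with log2 fold changes of 0.15 for Ucp2, 0.27 for Mtch1 and 0.31 for Mtch2. At 59.0 ± 5.44 and 53.2 ± 7.35 RPKM, Ucp2 had means above those of Slc25a3, 54.7 and 47.9 RPKM, though not in every library. The ranks, sums and shares of the family above leave out these members under other symbols.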

How the data were processed

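Libraries were made from 100 sorted HSCs each. The authors aligned single-end reads to mm39 with STAR and deposited raw counts per gene made with Subread, in whole numbers. Their annotation and strand setting are not given in the sources used here. Of 23094 rows, 1029 named no gene (0.335% to 0.467% of counts) and were left out. Library totals were 7214935 to 12398138 counts, and intervals of counting error were not computed.

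Groups followed the labels. Counts were filtered with filterByExpr, scaled by TMM and tested on all 8 libraries with the quasi-likelihood test of edgeR 4.0.16 in R 4.3.3, group being the only term, with Benjamini-Hochberg adjustment over 16444 genes and a threshold of 0.05. The procedure was tested on simulated data. RPKM was the count per kilobase of merged exons, scaled to TMM library sizes, with exons of GENCODE mouse release 39 on GRCm39, the same build as mm39, to which 21526 symbols matched. Shares, sums and levels are descriptions without a test. Transcript words of 75 bases were searched in that genome. Alternatives were DESeq2 1.42.0, limma 3.58.1 (voom), other scalings and filters, another gene length, a replicate block and leaving out each library.

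The family, its substrate groups and the other lists were chosen with earlier results of these data known. Values by library are given for members past the threshold, Slc25a3, Slc25a4 and Slc25a5, the highest member of each substrate group and paralogs, and ranges or means otherwise. The values of 1 member and 1 marker are not reported here. Protein features were not analysed here.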

Additional observations from a re-analysis of the deposited data

Results flagged for a closer look

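Of 84 sets of 4 libraries checked (42 members in each group), 1 held a library far from the others. Slc25a36 was at 17.0 RPKM in MitolΔ/Δ replicate 2, whereas the other MitolΔ/Δ libraries lay between 19.5 and 19.9 RPKM. The gap was 0.868 of the range of the group, above Dixon's 95% critical value. Chance flags about 1 in 20 such sets.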

How the results depend on the processing

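The 2 members that rose, Slc25a5 and Slc25a39, and Slc25a34, which fell, passed the threshold under all 7 other settings of scaling, filter, tool and block, whereas Slc25a36 passed under 4. The members called lower numbered 1 with DESeq2's size factors in edgeR, 1 with no expression filter and 1 with the replicate block. Leaving out 1 library at a time gave 0 to 3 members higher and 0 to 2 lower, with 0 higher without control replicate 2. Over all genes, 770 rose and 616 fell, against 1322 and 995 with DESeq2 and 167 to 1482 and 192 to 1019 on leaving out 1 library. The low ends came without control replicate 2, and the high ends without MitolΔ/Δ replicate 4. Of the related genes, 0 rose, against 1 with DESeq2, 1 with the replicate block and 0 to 6 on leaving out 1 library, and 1 fell, against 0 with no expression filter and 0 to 1 on leaving out 1 library. Pairing of the libraries by replicate number was not shown. Same-numbered libraries correlated at 0.080, -0.070, 0.053 and 0.067 in their deviations from the group means. Of the 4, 2 correlated best with their own number. These values do not settle whether same-numbered libraries were handled together. With the replicate block 957 genes rose and 695 fell, and the members numbered 2 higher and 1 lower. The family summed to 747 and 650 RPKM with the longest transcript as the length, which is shorter by construction.

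Directions turned in 12 members reported here, none of which had passed the threshold. With upper-quartile scaling, which moved the median log2 fold change of all genes from -0.02 to -0.08, the log2 fold change was -0.036 for Slc25a11, -0.019 for Slc25a12, -0.024 for Slc25a28, -0.0018 for Slc25a42, -0.040 for Slc25a44 and -0.017 for Slc25a53. That of Slc25a23 was 0.0045 with DESeq2's size factors, 0.016 with no expression filter and 0.0044 with DESeq2, and that of Slc25a53 was -0.035 with limma-voom and -0.012 with the replicate block. On leaving out 1 library, values crossed 0 for Slc25a2 (-0.14 to 0.28), Slc25a11 (-0.016 to 0.093), Slc25a12 (-0.0097 to 0.11), Slc25a16 (-0.26 to 0.026), Slc25a23 (-0.026 to 0.063), Slc25a28 (-0.017 to 0.14), Slc25a33 (-0.26 to 0.19), Slc25a37 (-0.070 to 0.27), Slc25a42 (-0.0090 to 0.15), Slc25a43 (-0.22 to 0.35), Slc25a44 (-0.035 to 0.083) and Slc25a53 (-0.22 to 0.17). The cause of these changes was not tested.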
